A study of Rattus norvegicus with 12 samples.

Results

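The genes described here are 10 that mark T cells and natural killer (NK) cells, taken as every probe whose gene name in the array files was Cd3d, Cd3e, Cd3g, Cd2, Cd8a, Gzmb, Prf1, Klrd1, Nkg7 or Foxp3. They held 11 of the 30367 probes and 10 of the 26612 gene names. RNA of cells freed with collagenase from the cervix was hybridised to 1-colour Agilent arrays for 12 adult female Sprague Dawley rats, with 3 rats per group, 4 groups and 1 array per rat. The groups were whole cervix of nonpregnant rats in proestrus (NP), whole cervix of pregnant rats on day 21 postbreeding (D21, usually the day before birth), and cervix of other NP and D21 rats from which macrophages (Mφs) had been removed with the ED1 antibody and magnetic beads. All rats were perfused through the heart with saline, so that cells carried in blood were reduced in every group. The Mφ-depleted groups hold whatever did not stay with the beads, and the cells on the beads were not measured.

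T cells recognise antigen through a receptor whose signal is carried by the CD3 chains, and their CD8 class and NK cells kill target cells by releasing granules. Perforin opens the membrane of the target and granzymes enter and trigger its death. In the uterus NK cells are known for their abundance in pregnancy, and regulatory T cells, which depend on Foxp3, for tolerance of the fetus.

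The probes of the 3 members that passed the study's threshold in any comparison are shown. Their positions in the rn4 build are as the array files give them, in lower case with no part marked. The sources used here do not say whether a probe lies in an exon of the current gene model.
Nkg7, chr1:93813978-93814037, plus strand: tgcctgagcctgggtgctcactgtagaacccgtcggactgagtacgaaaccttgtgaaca
Prf1, chr20:28663319-28663378, plus strand: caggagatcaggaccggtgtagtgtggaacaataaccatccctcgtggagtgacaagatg
Cd3g, chr8:47924376-47924435, minus strand: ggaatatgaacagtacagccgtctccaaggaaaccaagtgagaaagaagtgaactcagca

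Nkg7 and Prf1 were both lower in whole D21 than whole NP cervix, and the 250 bases before their start sites are shown because both hold TGTGGT or its reverse complement ACCACA, letters bound by RUNX factors, which are in capitals. The sequences are from RefSeq on the GRCr8 build, plus strand. Both strands were searched, and the motif was chosen after the values of the genes were known.
Nkg7, chr1:102981247-102981496: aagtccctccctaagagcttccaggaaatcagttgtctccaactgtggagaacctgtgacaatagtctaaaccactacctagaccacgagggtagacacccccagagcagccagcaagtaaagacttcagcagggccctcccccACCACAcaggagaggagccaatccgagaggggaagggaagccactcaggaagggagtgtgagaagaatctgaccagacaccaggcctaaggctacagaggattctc
Prf1, chr20:29788790-29789039: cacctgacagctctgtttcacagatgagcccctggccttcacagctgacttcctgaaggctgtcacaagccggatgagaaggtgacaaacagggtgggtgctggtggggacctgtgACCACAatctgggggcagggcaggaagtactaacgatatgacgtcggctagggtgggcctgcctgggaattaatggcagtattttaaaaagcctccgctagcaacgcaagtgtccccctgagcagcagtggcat
Of the 9 members with an entry in the promoter table, 4 held these letters (Cd2, Gzmb, Nkg7 and Prf1), and so did 14.5% of all 33469 promoters over the same 250 bases. Klrd1 had no entry. A match of letters is a description of the sequence and not a binding site.

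Levels are log2 intensities of a probe set against the 75th percentile of its own array, so that 0 is the brightness of that percentile, and levels of different probes are not compared with each other. The scanner software rates each spot as well above background or not. Of the 10 members 0 reached this rating on all 12 arrays, and Cd3e and Klrd1 reached it on none. Cd3d, Cd3g and Prf1 were well above background on 10 arrays, Nkg7 and Cd8a on 9, Foxp3 on 2 and Gzmb and Cd2 on 1. The first 5 of these gave a level in most rats, and neither Cd3e, a chain that every T cell receptor needs, nor Klrd1, the CD94 receptor of NK cells, gave a level above background. Of 72 other genes of T and NK cells on the arrays, 28 were well above background on no array, among them Cd5, Cd28, Cd8b, Gzma, Ifng and Klrb1. The signal is from tissue, and fewer cells of a type cannot be told apart from less RNA in each cell.

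**Figure D1:**
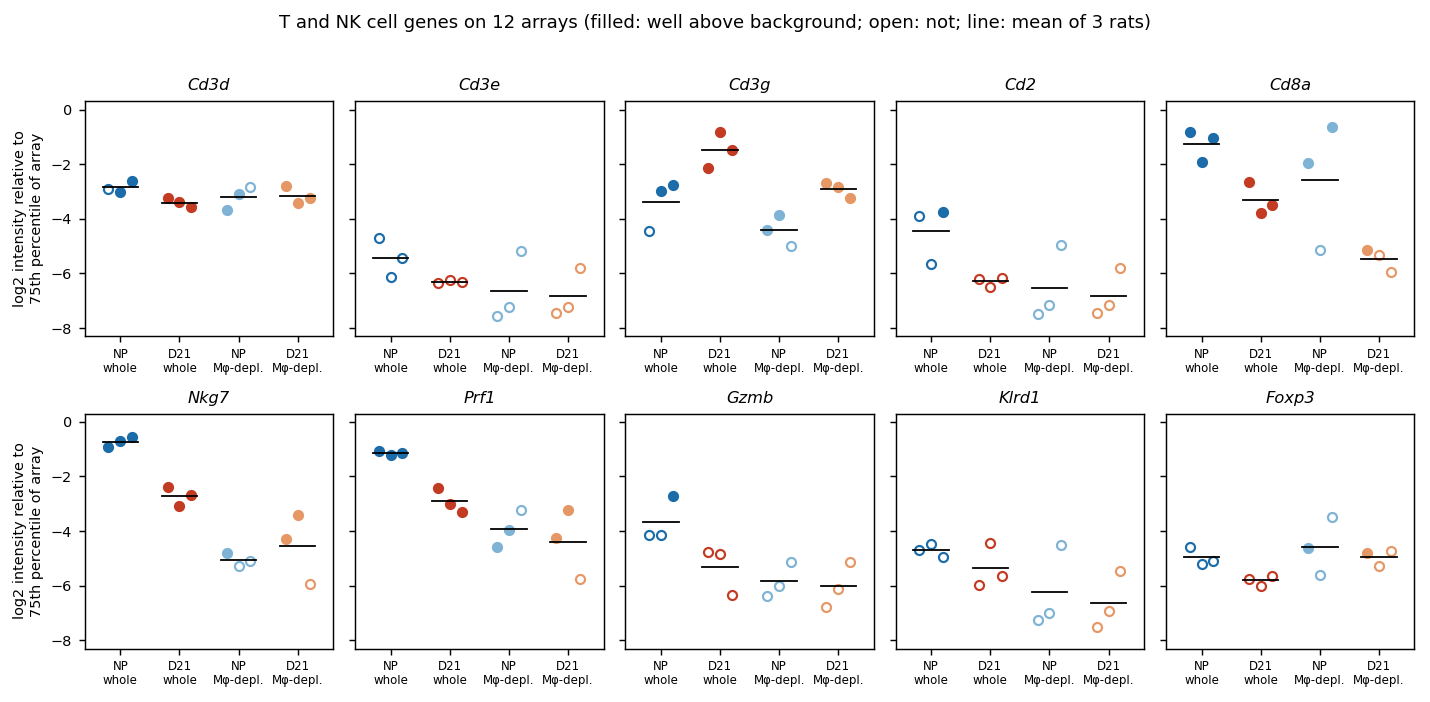
Log2 intensity against the array's 75th percentile (vertical axis) of the 10 members in the 4 groups (horizontal axis), 1 point per rat, filled where the probe was well above background, with a line at the mean of 3 rats; Gzmb is shown by its brighter probe. Nkg7 and Prf1 lay highest in whole NP cervix, Cd3g lay highest in whole D21 cervix, and Cd3e and Klrd1 have no filled point.

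Nkg7, a membrane protein of cytotoxic granules, was highest in whole NP cervix, at -0.92, -0.71 and -0.55 in rats 8, 9 and 10. In whole D21 cervix it was -2.37, -3.08 and -2.69 in rats 5, 6 and 7. The groups did not overlap, with all 3 NP rats above all 3 D21 rats. Nkg7 fell by 1.99 on the log2 scale (SE 0.50, 3.97-fold lower in D21, adjusted p = 0.042 in limma with Benjamini-Hochberg adjustment over 14056 genes). Leaving out D21 rat 6 gave a change of -1.80 with an adjusted p of 0.149, and the call was lost. It was also lost with normexp background correction (-1.14, adjusted p = 0.447) and with quantile normalization (-2.03, adjusted p = 0.123). The normexp setting added an offset of 50 to the intensities, which by itself shrinks log2 differences of dim probes.

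Nkg7 was lower in Mφ-depleted cervix than in whole cervix of other rats in the same state. In Mφ-depleted NP cervix it was -4.80, -5.27 and -5.11 in rats 5, 6 and 7, and the probe was well above background in rat 5 alone. In Mφ-depleted D21 cervix it was -4.29, -3.41 and -5.94 in rats 1, 2 and 4, and rat 4 was not well above background. Every rat of whole cervix was above every rat of depleted cervix of the same state. Whole NP cervix was higher than depleted NP cervix by 4.33 on the log2 scale (SE 0.50, adjusted p = 8.36e-05, limma). With depleted rats 6 and 7, where the probe was not measured, set at the lowest level rated well above background on their arrays, it was at least 11.5-fold higher. That bound holds for the processing used here, and under the alternatives the lowest difference was 2.35 on the log2 scale. Whole D21 cervix was higher than depleted D21 cervix by 1.83 (SE 0.50, adjusted p = 0.0269, limma), or at least 2.13-fold with depleted rat 4 set at that level. The D21 call was lost without whole D21 rat 5 (1.66, adjusted p = 0.0908) or rat 7 (1.82, adjusted p = 0.0816), and without depleted D21 rat 4 the difference was 1.13. It was lost as well with normexp (0.0838, adjusted p = 0.966), with quantile normalization (1.70, adjusted p = 0.123) and with slide as a block (2.26, adjusted p = 0.436). The change with depletion was smaller in D21 than in NP rats by 2.50 on the log2 scale (SE 0.71), a difference that did not pass the test (adjusted p = 0.0976, limma interaction). Without depleted D21 rat 4 it was 3.20 smaller and passed (interaction -3.20, adjusted p = 0.00316, limma). Calls rose over the whole array in that fit, to 1196 genes higher and 1284 lower of 15906. With all rats they were 64 and 284 of 14565.

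Prf1, the gene of perforin, was -1.07, -1.21 and -1.13 in whole NP rats 8, 9 and 10. In whole D21 rats 5, 6 and 7 it was -2.43, -3.01 and -3.30. The NP rats lay close together and all 3 were above the D21 rats. Prf1 fell by 1.78 on the log2 scale (SE 0.54, 3.42-fold lower in D21), which passed the study's threshold of 2-fold and a p under 0.01 before adjustment, with an adjusted p of 0.0798 in limma. This call was lost when any of the whole rats other than D21 rat 5 was left out, and also without depleted NP rat 6 or depleted D21 rat 1. The change without each of these 7 rats lay between -1.81 and -1.58. With slide as a block the change was -1.78 and the call was lost (adjusted p = 0.399), and it was lost with normexp (-0.87, adjusted p = 0.575).

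In Mφ-depleted NP cervix Prf1 was -4.58, -3.96 and -3.24 in rats 5, 6 and 7, the last of them not well above background. In Mφ-depleted D21 cervix it was -4.25, -3.24 and -5.74 in rats 1, 2 and 4, with rat 4 again not well above background. The NP groups did not overlap, while depleted D21 rat 2 lay above whole D21 rat 7. Whole NP cervix was higher than depleted NP cervix by 2.79 on the log2 scale (SE 0.54, adjusted p = 0.00249, limma), or at least 6.44-fold with depleted rat 7 set at its array's lowest level above background. That bound holds for the processing used here, and under the alternatives the lowest difference was 1.83 on the log2 scale. The D21 difference of 1.50 (SE 0.54, adjusted p = 0.0669, limma) did not pass the threshold.

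Gzmb, the granzyme best known for starting apoptosis, has a pair of probes, both well above background in whole NP rat 10 alone, at -2.73 and -3.31. In the other 11 arrays the brighter probe lay between -6.79 and -4.13. No test was made and no fold is given, since no group had the probe well above background on all 3 arrays and whole NP cervix had it in 1 rat.

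Cd3g, unlike Nkg7 and Prf1, was higher in whole D21 than in whole NP cervix. It is the gamma chain of CD3, was measured by 9 or 10 spots on each array and was highest in whole D21 cervix, at -2.14, -0.81 and -1.47 in rats 5, 6 and 7. In whole NP cervix it was -4.44, -2.98 and -2.76 in rats 8, 9 and 10, with rat 8 not well above background. All D21 rats were above all NP rats. Its level in D21 exceeded that in NP by 1.92 (log2, SE 0.48, adjusted p = 0.0406, limma), or at least 2.85-fold with NP rat 8 set at its array's lowest level above background. Leaving out D21 rat 6 gave 1.59 with an adjusted p of 0.154, which ended the call. The 3 whole D21 rats shared a slide, and with slide as a block the difference was 1.28 (adjusted p = 0.421) and the call was lost, as it was with normexp (1.14, adjusted p = 0.284).

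After removal of Mφs the same order held for Cd3g. In depleted D21 rats 1, 2 and 4 it was -2.68, -2.82 and -3.24. In depleted NP rats 5, 6 and 7 it was -4.39, -3.87 and -5.01, with rat 7 not well above background. The D21 rats were all above the NP rats, by 1.51 on the log2 scale (SE 0.48, unadjusted p = 0.00856, adjusted p = 0.105, limma), or at least 1.77-fold with NP rat 7 set at its array's lowest level above background. This call was lost without depleted NP rat 5 or 7, any of the depleted D21 rats, or whole D21 rat 7, with values between 1.22 and 1.68, and with slide as a block (1.51, adjusted p = 0.203). Whole D21 cervix was above depleted D21 cervix in every rat, by 1.44 (SE 0.48, adjusted p = 0.0517, limma), which did not pass the threshold.

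Cd3d, the delta chain, was also measured by 9 or 10 spots and differed little. It was -2.93, -3.02 and -2.60 in whole NP rats 8, 9 and 10, and -3.25, -3.39 and -3.57 in whole D21 rats 5, 6 and 7. The D21 rats were all below the NP rats, but the difference of -0.55 (SE 0.27, adjusted p = 0.252, limma) did not pass the threshold. In Mφ-depleted cervix Cd3d was -3.69, -3.08 and -2.85 in NP rats 5, 6 and 7 and -2.81, -3.41 and -3.22 in D21 rats 1, 2 and 4. These groups overlapped, with a difference of 0.06 (SE 0.27, interval from -0.53 to 0.65). Cd3d and Cd3g are neighbours on chromosome 8 in RefSeq (GRCr8, 54184573 to 54190112 and 54177572 to 54184087). Cd3e, the epsilon chain, lay between -7.56 and -4.71, at background throughout.

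**Figure D2:**
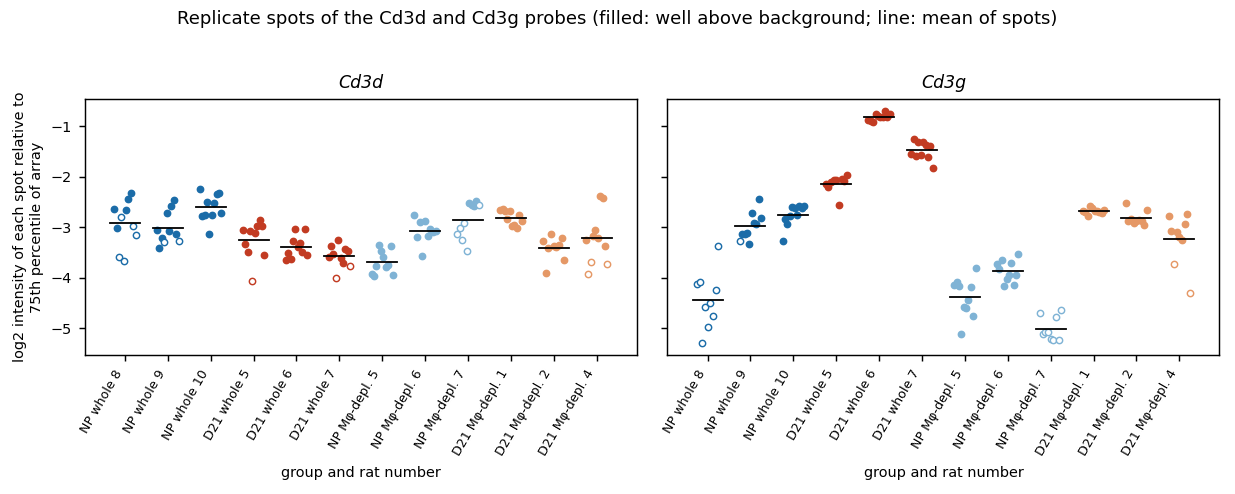
Log2 intensity of each replicate spot against the array's 75th percentile (vertical axis) for the Cd3d and Cd3g probes on the 12 arrays (horizontal axis), filled where the spot was well above background, with a line at the mean of the spots. The Cd3g spots of whole D21 rat 6 lie between -0.92 and -0.69, and those of depleted NP rat 7 and whole NP rat 8 are all open. The Cd3d spots lie in 1 band across the groups.

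Cd8a, a chain of the CD8 co-receptor, was -0.81, -1.91 and -1.06 in whole NP rats 8, 9 and 10 and -2.64, -3.79 and -3.50 in whole D21 rats 5, 6 and 7. The groups did not overlap, and the difference of -2.05 (SE 0.87, adjusted p = 0.192, limma) did not pass the threshold. It passed with the same value when the 6 whole arrays were fitted alone (adjusted p = 0.023) or without depleted NP rat 6 (adjusted p = 0.0273), and with array weights (-2.25, adjusted p = 0.0104). Over all alternatives this difference ranged from -2.38 to -0.98. In depleted NP cervix Cd8a was -1.97, -5.15 and -0.66 in rats 5, 6 and 7, so that rat 7 was above every whole NP rat and rat 6 was not well above background. In depleted D21 cervix it was -5.14, -5.32 and -5.95 in rats 1, 2 and 4, all below the whole D21 rats and well above background in rat 1 alone. The spread of the depleted NP rats (SD 2.31) was the widest of any member in any group. Whole cervix was above depleted cervix by 2.16 in D21 (SE 0.87, adjusted p = 0.0931, limma) and by 1.33 in NP rats (SE 0.87, adjusted p = 0.265, limma), and neither passed. The D21 difference passed under 6 alternatives, among them the arrays compared alone (2.16, adjusted p = 0.014) and array weights (1.87, adjusted p = 0.0168). Over all alternatives the D21 difference ranged from 0.0452 to 2.65, so that it nearly vanished under the least favourable.

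Cd2, an adhesion receptor of T and NK cells, was well above background in whole NP rat 10 alone, at -3.75. Foxp3, the factor that sets the fate of regulatory T cells, was well above background in depleted D21 rat 1 at -4.81 and depleted NP rat 5 at -4.64. Klrd1 lay between -7.51 and -4.45. These 3 genes and Cd3e give no measured level in most rats, and no comparison of them was made.

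Of the 5 members tested between D21 and NP whole cervix, 1 was called higher in D21 (Cd3g) and 2 lower (Nkg7 and Prf1), beside 5.39% and 3.10% of all 14056 genes tested. Of these members Cd3d and Cd3g entered through D21 alone, with NP rat 8 not above background. The groups did not overlap for 5 of 5 members, against 44.3% of all genes tested. Between whole and depleted cervix, 1 of 5 members was called higher in whole D21 cervix (Nkg7), and 0 lower, beside 10.0% and 7.72% of 14256 genes, and 3 of 5 did not overlap, beside 44.5%. Cd8a, Nkg7 and Prf1 entered the depletion comparisons through whole cervix alone, in D21 and in NP rats, and Cd3d and Cd3g entered the one between depleted groups through D21 alone. Entry through the brighter group favours a difference, so these counts are a description of the genes tested and no evidence of a direction. In NP rats 2 of 3 were called higher in whole cervix (Nkg7 and Prf1), and 0 lower, beside 13.6% and 10.8% of 13409 genes, and the same 2 did not overlap, beside 47.0%. Between depleted D21 and depleted NP cervix, 1 of 2 was called higher in D21 (Cd3g), and 0 lower, beside 5.44% and 2.06% of 13406 genes, and the same gene did not overlap, beside 17.1%. The interaction was called for 0 of 5 members at an adjusted p of 0.05, beside 2.39% of 14565 genes, and only Nkg7 had an unadjusted p under 0.05 (0.0048, limma). With normexp background correction in place of the scanner's own, and likewise with quantile normalization, the calls of Nkg7 and Prf1 between whole and depleted NP cervix stood, and the other calls of members did not.

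**Figure D3:**
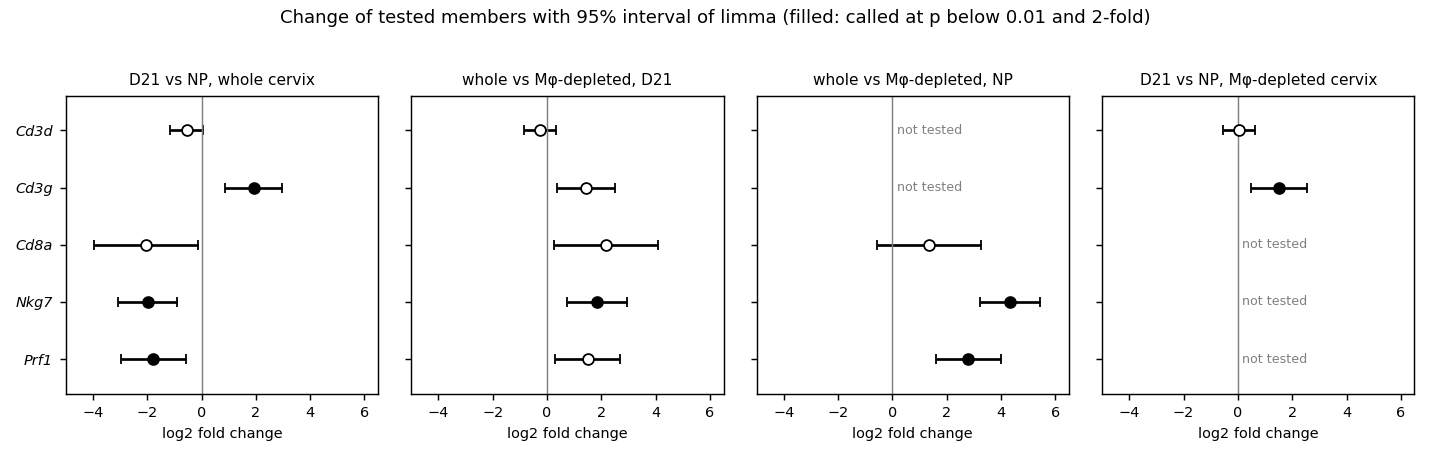
Log2 fold change (horizontal axis, first group over second) with the 95% interval of limma for the 5 tested members (vertical axis) in 4 comparisons, filled where called. Nkg7 and Prf1 lie left of 0 between D21 and NP whole cervix and right of 0 between whole and depleted NP cervix, and Cd3g lies right of 0 in all 3 comparisons where it was tested.

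Other genes of T and NK cells were taken from 5 lists with 77 names, of which 72 were on the arrays. In whole cervix 23 could be tested between D21 and NP rats, with a median change of -0.41 against -0.08 over all genes. Of them 6 were called lower in D21 and 2 higher, beside 3.10% and 5.39% of all genes tested. Of the 23, 13 were above background in all rats of both groups, and 3 of those were called lower and 1 higher. Of all 12293 genes so measured, 328 were called lower and 505 higher. Gzmm, a granzyme, was -0.34, -0.25 and -0.17 in whole NP rats and -2.40, -2.81 and -2.31 in whole D21 rats, and fell by 2.25 (SE 0.63, 4.76-fold, adjusted p = 0.0622, limma). Xcl1, a chemokine of activated T and NK cells, fell by 2.10 (SE 0.40, adjusted p = 0.0158). Ccl5, a chemokine stored by cytotoxic cells, fell by 1.65 (SE 0.49, adjusted p = 0.0746), and Cxcr3, a receptor that draws them to inflamed tissue, by 1.52 (SE 0.25, adjusted p = 0.00877). The call of Gzmm was lost without whole NP rat 8, 9 or 10 or whole D21 rat 5 or 6 (-2.31 to -2.10), and that of Ccl5 without whole NP rat 9 or 10 or any whole D21 rat (-1.76 to -1.39). With normexp 2 of the 6 lower genes kept the call (Ccl5 and Gzmm), while Xcl1 was -0.72 (adjusted p = 0.728) and Cxcr3 -0.44 (adjusted p = 0.866). Quantile normalization ended the calls of Gzmm, Xcl1 and Il2rb, and slide as a block those of Ccl5 (-1.45, adjusted p = 0.379) and Zap70 (-1.26, adjusted p = 0.352).

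Zap70, a kinase that binds the CD3 chains, fell by 1.42, and Il2rb, a receptor chain for interleukins 2 and 15, by 1.40. Both lay outside the rule for naming genes and were chosen after their values were seen. With normexp they were -0.29 (adjusted p = 0.913) and -0.11 (adjusted p = 0.974). The call of Zap70 was lost without whole NP rat 9 or whole D21 rat 6 or 7 (-1.31 to -1.14), and that of Il2rb without any 1 of the 6 whole rats, depleted NP rat 5 or depleted D21 rat 4 (-1.52 to -1.17). Rab27a, which moves granules in many cell types, was higher in D21 by 1.51 (SE 0.31, adjusted p = 0.0195), a call that slide as a block ended (1.48, adjusted p = 0.211). Gzmm, Ccl5, Cd4 and Bcl11b were named by the study from these samples, so that their changes are no independent evidence of a direction. Klrk1, the NKG2D receptor, cleared background on each of the 12 arrays and differed by 0.31 (SE 0.38, adjusted p = 0.673) between D21 and NP whole cervix. Klrc1 and Klrc2, receptors that pair with Klrd1, differed by 1.13 (SE 0.92, adjusted p = 0.496) and 1.82 (SE 1.05, adjusted p = 0.334) and did not pass.

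Between whole and depleted NP cervix, 20 of these genes could be tested, with a median of 1.19 against -0.04 over all genes. Of them 10 were called higher in whole cervix and 1 lower, beside 13.6% and 10.8% of all genes tested. Of the 20, 8 entered through whole and 4 through depleted cervix alone, beside 1508 and 801 of all 13409 genes. Such entry shapes the median, which is a description and no evidence of a direction. Of the 8 above background in all rats of both, 3 were called higher (Cd48, Srgn and Il2rg), beside 918 of all 11100 genes so measured. Ccl5 was higher by 3.55 (SE 0.49, adjusted p = 0.000277), Gzmm by 3.38 (SE 0.63, adjusted p = 0.00203) and Xcl1 by 3.24 (SE 0.40, adjusted p = 0.000133). Each of the 3 was above background in 2 of 3 depleted rats, and with the other rat at its array's lowest such level Gzmm was at least 6.14-fold and Xcl1 at least 5.92-fold higher. Cd48, a surface protein of most leukocytes, was higher by 4.70 (SE 0.54, adjusted p = 8.5e-05). Cd4, a co-receptor that rat Mφs also carry, was at least 15.2-fold higher, since the depleted arrays were not well above background. Cxcr3, Srgn, Ltb, Il2rb and Il2rg were the other 5 called higher, and the call of Il2rb was lost without depleted NP rat 5 or 7 or any whole NP rat (1.24 to 1.55). With normexp the calls of Xcl1 (1.44, adjusted p = 0.113), Cxcr3 (1.34, adjusted p = 0.16) and Il2rb (0.74, adjusted p = 0.385) were lost. Bcl11b, a T cell factor that some epithelia also express, went the other way with a level in whole cervix at least 7.40-fold lower. The bounds hold for the processing used here. Under the alternatives the log2 difference nearest 0 was 2.62 for Cd4, 2.18 for Gzmm and -1.71 for Bcl11b.

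In D21 rats 23 of these genes were tested for depletion, with a median of 0.87 against -0.06. Of them 5 were called higher in whole cervix and 1 lower, beside 10.0% and 7.72% of all genes tested. Of the 23, 9 entered through whole and 3 through depleted cervix alone, beside 1099 and 515 of all 14256 genes, so this median too is only a description. Of the other 11, above background in all rats of both, 2 were called higher (Cd48 and Srgn), beside 963 of all 12642 genes so measured. Cd4 was at least 30.1-fold higher, Cd48 higher by 3.85 (SE 0.55, adjusted p = 0.00123), Ccl5 by 2.02 (SE 0.49, adjusted p = 0.0177) and Srgn, a proteoglycan of granules in many leukocytes, by 1.63 (SE 0.26, adjusted p = 0.0026). Cxcr3 was at least 2.04-fold higher, and Bcl11b at least 6.38-fold lower. These bounds hold for the scanner's background correction, since with normexp the calls of Cxcr3 (0.00625, adjusted p = 0.997), Bcl11b (-1.30, adjusted p = 0.161) and Ccl5 (0.44, adjusted p = 0.63) were lost. Slide as a block ended those of Cd48 (2.42, adjusted p = 0.349) and Ccl5 (2.93, adjusted p = 0.304). Gzmm differed by 1.11 (SE 0.63, adjusted p = 0.216, limma), which did not pass. Between depleted D21 and depleted NP cervix 15 were tested, with 1 called higher in D21 and 1 lower, beside 5.44% and 2.06% of all genes tested. Rab27a was higher by 1.23. Lcp2, an adaptor below the T cell receptor, was lower by 3.66 (SE 1.13, adjusted p = 0.0981, limma), where the D21 rats spread from -7.37 to -2.39. Lcp2 entered through the NP rats alone, since 1 of 3 D21 rats was well above background. With the other D21 rats at their arrays' lowest such level, the difference was -2.99. The call of Lcp2 was lost without depleted NP rat 5 or 7, depleted D21 rat 1 or 2, whole NP rat 8 or 10 or whole D21 rat 5 or 7 (-3.66 to -2.44). It was also lost with normexp (-0.73, adjusted p = 0.641) and with slide as a block (-2.63, adjusted p = 0.277), and that of Rab27a with normexp (0.88, adjusted p = 0.293).

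**Figure D4:**
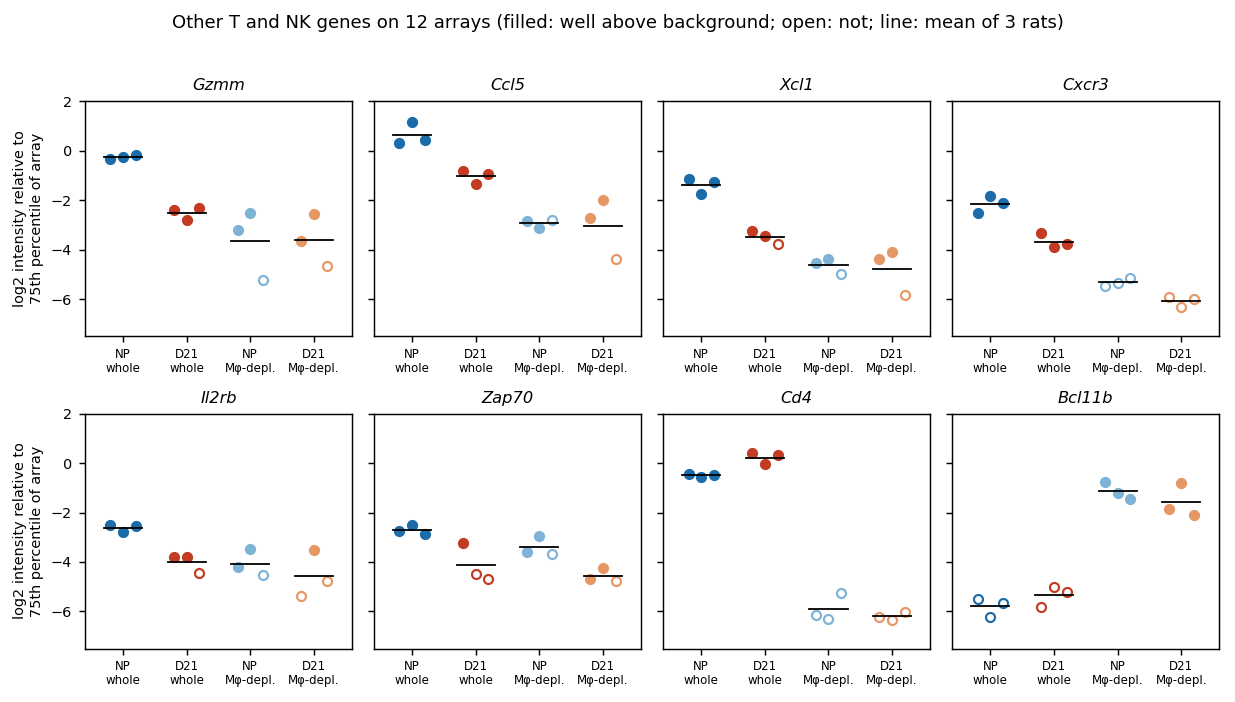
Log2 intensity against the array's 75th percentile (vertical axis) of 8 other genes of T and NK cells in the 4 groups (horizontal axis), 1 point per rat, filled where well above background, with a line at the mean of 3 rats. Gzmm, Ccl5, Xcl1, Cxcr3, Il2rb and Zap70 lie highest in whole NP cervix, Cd4 is filled in whole cervix alone and Bcl11b in depleted cervix alone.

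Markers of other cells moved with the same comparisons, and their part in these results was not tested. Of 15 Mφ markers, 13 were called higher in whole than in depleted D21 cervix, and 11 of 13 tested in NP rats, while Cd68, whose product the ED1 antibody binds, differed by -0.15 and 0.55 and was not called. The mean log2 level of the Mφ list was 1.30 to 1.96 in whole NP, 1.80 to 1.86 in whole D21, -3.34 to -3.20 in depleted NP and -3.22 to -2.35 in depleted D21 rats. Of the mast cell markers 4 of 6 tested were higher in whole than depleted D21 cervix and 3 of 5 in NP rats, where Kit was lower, and of the pan leukocyte markers 5 of 7 and 5 of 6 were higher. Smooth muscle markers were called higher in whole cervix for 10 of 10 genes in NP and 7 of 10 in D21 rats, and fibroblast markers for 10 of 10 and 3 of 10. Epithelial markers were called lower in whole cervix for 6 of 10 genes in NP and 3 of 10 in D21 rats, where 1 was higher (Cldn7). The genes that rise within minutes of tissue handling, such as Fos and Atf3, were called lower in whole cervix for 9 of 10 tested in NP and 11 of 12 in D21 rats. Between D21 and NP whole cervix, Ptprc, the CD45 antigen, was 1.08 lower in D21 (SE 0.46, adjusted p = 0.196, limma), 8 of 10 epithelial markers were higher in D21 and 4 of 10 smooth muscle markers were lower.

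The 12 arrays lay on 4 slides and were scanned on 3 days, with all whole arrays scanned on the last day. The 3 whole D21 rats shared a slide with whole NP rat 10, and within it the D21 mean minus rat 10 was -2.16 for Nkg7, -1.78 for Prf1 and 1.28 for Cd3g. On the last day the single depleted NP rat and the single depleted D21 rat had neither probe well above background. With them at their arrays' lowest level above background, the whole NP mean was higher by at least 2.20 for Nkg7 and 1.79 for Prf1, and the whole D21 mean by at least 1.01 and 0.81. Depleted NP rat 7 and whole NP rat 8 were the dimmest arrays, with 44.9% and 48.2% of probes well above background against 51.0% to 61.7% in the others. Without both of them Nkg7 remained called between D21 and NP whole cervix and Prf1 did not (-1.74, adjusted p = 0.201).

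Genes with a profile like these were named by Pearson's r over the 12 arrays, among 14624 genes well above background on at least 6, as a description, since points within a group and on a slide are not independent. The mean of Cd3d, Cd3e and Cd3g, of which Cd3e was at background, was most like Klk1c2 (r = 0.956), Slfn5 (0.946), Tmem128 (0.945), Snx9 (0.942) and RT1-CE11 (0.935). The mean of Nkg7 and Prf1, a profile added after their values were seen, was most like Smtn (0.987), a smooth muscle protein, then Ccl5 (0.985), Rtn4r (0.982), Xcl1 (0.972) and Casq1 (0.961).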

How the data were processed

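The authors deposited scanner intensity files of 1-colour arrays, written by Agilent Feature Extraction 9.5.3.1, with background subtracted and no scaling across arrays. A second deposited table, from GeneSpring GX, gives ratio values of intensity over the array's 75th percentile and served as an alternative. The members and lists were chosen with earlier results of these data known. Control spots and spots marked as outliers were left out, spots of a probe were averaged as log2 values, and each array was centred on its own 75th percentile. Probes were named through RefSeq accessions (17328 of 30367 matched), with members kept by their array name, and the brightest probe stood for a gene. A gene had to be well above background in all 3 rats of a compared group to enter limma 3.58.1 (R 4.3.3; group means, no covariates, 12 arrays). Calls needed an unadjusted p below 0.01 and a change of 2-fold, with Benjamini-Hochberg adjusted p-values beside it. The interaction was called at an adjusted p of 0.05. A group not well above background was given as a bound, which holds for this processing and not for every alternative. Bounds for groups measured in part were added after seeing the data. Intervals are at 95%. The rats are separate animals, and groups of 3 against 3 allow no exact permutation p below 0.1. The number of arrays limits the precision. From other T and NK lists, up to 6 genes called per comparison were named by size of change, and 1 gene so chosen is not reported here. Alternatives covered the test, background correction, normalization, filter, blocks, array weights and each rat left out. Background correction by normexp used an offset of 50, so smaller differences under it are in part due to the offset. Restricting to the last scan day and leaving out the 2 dimmest arrays were chosen after seeing the data. The procedure was checked on simulated data, with genes that cleared background on each of the 12 arrays. Of the 10 members 0 did so, and the check does not cover their levels near background or their entry through the brighter group.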

Additional observations from a re-analysis of the deposited data

How the results depend on the processing

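Nkg7 between whole and depleted NP cervix kept its direction and its call under the 28 alternatives in which it was tested (2.35 to 5.08). A filter on every array left it out, since the probe was well above background in 3 whole but only 1 of the depleted NP rats. These fits therefore share levels near background in the depleted rats and are no independent evidence. Of 545 results for the members under the alternatives, 453 kept direction and side of the threshold, 53 lost the call, 24 gained it and 15 changed sign. The cause was not tested. With the methods' t-test, 0 members were higher and 1 was lower in whole D21 than NP cervix, 1 was higher in whole than depleted NP cervix and 0 were higher in depleted D21 than depleted NP cervix. After its adjustment these counts were 0, 0, 1 and 0, and 0 members were higher in whole than depleted D21 cervix. With limma's adjusted p at 0.05, 1 member was lower in whole D21 cervix and 0 were higher in depleted D21 cervix. Normexp and quantile normalization each gave 0 higher and 0 lower members in whole D21 cervix, 0 higher in whole than depleted D21 cervix and 0 higher in depleted D21 cervix. With slide as a block these were 0, 1, 0 and 0. Blocking on scan day, 1 was lower in whole D21 cervix and 0 were higher in depleted D21 cervix.

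The count higher in whole than depleted D21 cervix was 2 with only the arrays compared, 3 with a percentile over probes detected on all arrays, 3 with array weights, 3 on the last scan day and 2 without the 2 dimmest arrays. The count higher in depleted D21 than depleted NP cervix was 0 under each of the percentile, no filter, array weights, last scan day and without the 2 dimmest arrays. Depleted D21 cervix had 1 lower member with no filter and 1 on the last scan day, both Cd8a, and whole D21 cervix 1 lower without the 2 dimmest arrays. Array weights gave 3 members in the interaction, beside 1750 genes called higher and 1885 lower of 14565. With them 2498 genes were higher and 2090 lower of 14256 between whole and depleted D21 cervix. A filter on every array gave 0 higher in whole D21 than NP cervix and 0 higher in whole than depleted D21 cervix, and no value for the comparisons of depleted NP cervix, where no member was left.

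Leaving out each rat gave 0 to 1 members higher and 0 to 2 lower in whole D21 cervix, 0 to 2 higher in whole than depleted D21 cervix, 2 to 3 in NP rats, 0 to 1 higher and 0 to 1 lower in depleted D21 cervix, and 0 to 2 in the interaction. The 2 in the interaction came without depleted D21 rat 4, where 1196 genes were called higher and 1284 lower of 15906. Values that changed sign were small or uncalled. Cd3d between D21 and NP was 0.0565 in whole cervix with normexp, and in depleted cervix it was -0.10 with the percentile over detected probes, -0.18 with slide and -0.18 with scan day as a block, -0.19 to 0.24 with each rat left out (below 0 without depleted NP rat 5 or depleted D21 rat 1) and -0.37 on the last scan day. Prf1 between whole and depleted D21 cervix was -0.0376 with normexp, and its interaction was 0.73 on the last scan day. The Cd3g interaction was -0.0803 with normexp, -0.23 with slide as a block and -0.12 to 0.74 with each rat left out (below 0 without whole NP rat 8). The Cd8a interaction was -0.88 with normexp and -0.14 to 2.11 with each rat left out (below 0 without depleted NP rat 7), and Cd8a between whole and depleted NP cervix was -0.60 on the last scan day.

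No paired analysis was possible because the compared groups hold different rats, whose numbers name animals and tie none of them together. Signal near background limits these results: the lowest level rated well above background was -2.93 in depleted NP rat 7 and -5.35 in depleted D21 rat 1.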
